A study of Rattus norvegicus with 8 samples.

Results

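The GABA receptor subunit genes described here are Gabra2, Gabra4, Gabra5, Gabrb1 and Gabrb2 of the GABA-A receptor and Gabbr1 and Gabbr2 of the GABA-B receptor. They were found as the probe sets annotated to exactly 1 of these 7 genes, which gave 13 of 20347 single-gene probe sets (12 from chip A, 1 from chip B) for 7 of 13810 genes. The study held 1 cell population and no control group: A2B5/OTMP+ oligodendrocytes from the brains of rats at postnatal day 7, which were sorted by flow cytometry and are called perineuronal, lying against neurons, in the title. A2B5 is an antibody to gangliosides found on young glia. RNA from 4 biological replicates was read on both Affymetrix array types, which gave 8 arrays. Strain, sex, and animals per replicate are not given, and p-values therefore measure only the spread between these replicates.

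GABA is the main inhibitory transmitter of the mature brain. GABA-A receptors are chloride channels assembled from several subunits around a pore, usually alpha and beta subunits with a gamma or delta subunit, and the alpha subunit sets much of their pharmacology. GABA-B receptors are G protein-coupled and work as a pair in which Gabbr1 binds GABA and Gabbr2 carries the complex to the membrane and couples to the G protein. Oligodendrocyte precursors receive GABA-releasing synapses, and astrocytes carry both receptor classes as well.

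Every deposited value is a linear ratio against an unnamed reference. A ratio above 1 (log2 above 0) means more signal than in that reference. It gives neither the brightness of a gene nor whether it was expressed, and different genes cannot be ranked by it. Across probe sets, r between replicates lay between 0.710 and 0.792. Each mean below is a mean log2 ratio ± SD over 4 arrays (n = 4). A probe set was called higher or lower when limma's two-sided test against a ratio of 1 gave an adjusted p under 0.05 over all probe sets of its array type.

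The members split almost evenly between high and low ratios. On chip A, 5 of 12 probe sets were higher than the reference (limma, against 9.21% of all 15866 tested) and 5 of 12 were lower (against 30.1%), and the single chip B probe set was higher (against 5.08% of 15276). By gene, Gabra2 and Gabrb1 had only higher calls (2 of 7, against 7.7% of 13810 genes), Gabra4 and Gabra5 only lower calls (2 of 7, against 36.1%), and Gabbr1, Gabbr2 and Gabrb2 had both kinds (3 of 7, against 1.52%). The median over the 13 probe sets was 0.45, beside -0.11 over everything tested on chip A. Centring the arrays on their medians raised log2 ratios by 0.12 (chip A) and 0.10 (chip B) and moved the chip A split of all calls from 1462 higher and 4768 lower to 1878 and 3689, with the members' split as before. Because the genes were chosen with earlier results of these data known, these counts describe the members and do not test them.

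**Figure D1:**
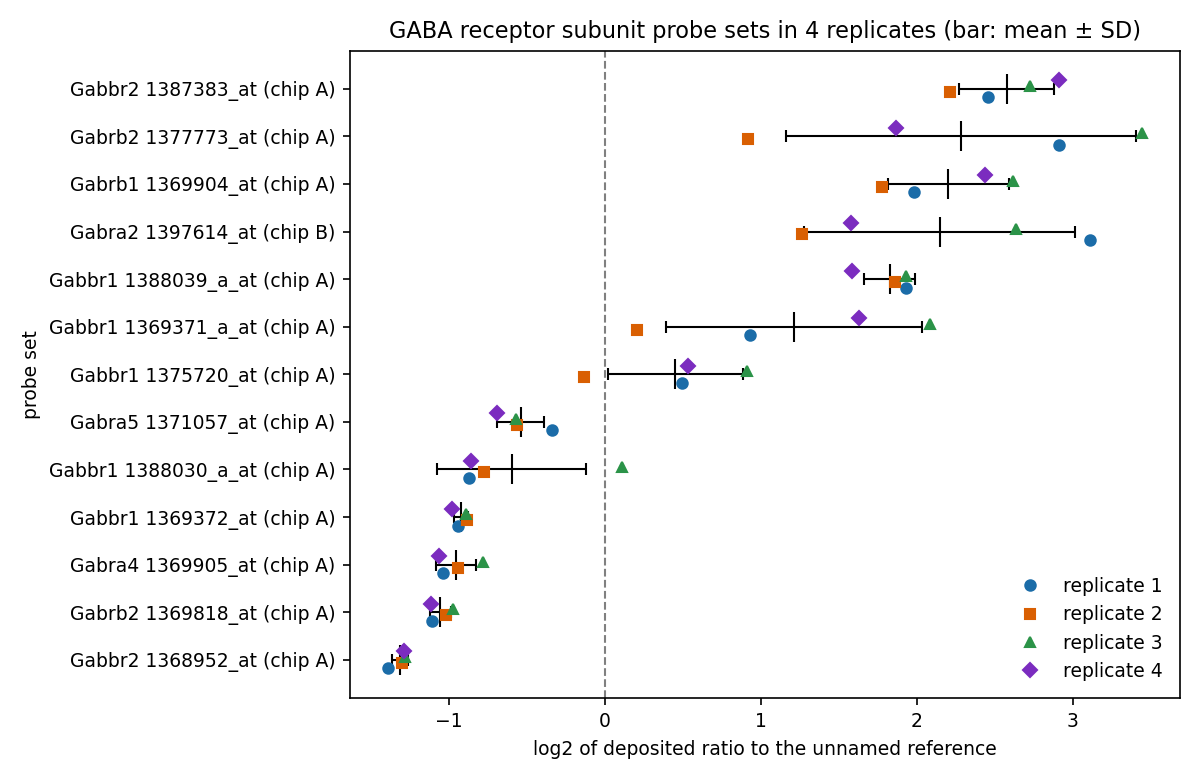
Log2 of the deposited ratio for each of the 13 GABA receptor probe sets (rows) in replicates 1 to 4 (symbols), with the mean and SD as a bar; the dashed line is a ratio of 1. The 6 higher-called probe sets reach means from 1.21 to 2.58 with SDs from 0.16 to 1.12. The 5 lower-called ones lie between -1.32 and -0.54 with SDs from 0.05 to 0.15.

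Among the alpha subunits, Gabra2 stood apart from the others. The protein it encodes is an early-expressed alpha subunit that neurons place at the axon initial segment. Its chip B probe set had ratios of 8.62, 2.40, 6.22 and 2.98 in replicates 1 to 4. All 4 arrays lay above the reference, with replicates 1 and 3 highest and more than a 3-fold range (3.60-fold from lowest to highest). The mean was 2.15 ± 0.87 (limma adjusted p = 0.0109), a geometric mean ratio of 4.42.

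Gabra4 and Gabra5 had low ratios. Gabra4 encodes an alpha subunit of extrasynaptic receptors, often paired with the delta subunit. Its ratios were 0.486, 0.520, 0.582 and 0.479, a mean of -0.96 ± 0.13 (limma adjusted p = 0.000437). Gabra5, whose subunit carries tonic current in hippocampal neurons, had ratios of 0.791, 0.677, 0.673 and 0.618, a mean of -0.54 ± 0.15 (limma adjusted p = 0.00463). The 4 arrays of each gene were all below 1, and the ranges of these genes did not overlap each other.

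Of the beta subunits, which help to form the GABA binding site, Gabrb1 was high on all arrays. Its ratios were 3.94, 3.43, 6.13 and 5.404, a mean of 2.20 ± 0.39 (limma adjusted p = 0.000302). The lowest array was still above 3 times the reference. Gabrb2, a beta subunit gene widely used by adult neurons, was measured by a pair of probe sets that disagreed. Probe set 1377773_at, annotated to an expressed sequence tag, had ratios of 7.53, 1.89, 10.9 and 3.64, a mean of 2.28 ± 1.12 (limma adjusted p = 0.0101). Probe set 1369818_at, annotated to the RefSeq mRNA, had ratios of 0.464, 0.492, 0.508 and 0.461, a mean of -1.06 ± 0.07 (limma adjusted p = 0.000184). The first varied 5.76-fold between replicates and the second 1.10-fold, and no array of one reached the range of the other.

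Both beta genes are shown by their promoter sequence because the reference sequences share exact stretches that the arrays did not measure. RefSeq promoters (GRCr8, 250 bases before to 50 after the transcript start) were found for 6 of the 7 members, without Gabra2. The Gabrb1 promoter is chr14:36902844-36903143, minus strand, and the Gabrb2 promoter chr10:27439543-27439842, plus strand. Each is written 5′ to 3′, and the capitals mark the stretches of at least 10 bases that both hold on the same strand.
Gabrb1: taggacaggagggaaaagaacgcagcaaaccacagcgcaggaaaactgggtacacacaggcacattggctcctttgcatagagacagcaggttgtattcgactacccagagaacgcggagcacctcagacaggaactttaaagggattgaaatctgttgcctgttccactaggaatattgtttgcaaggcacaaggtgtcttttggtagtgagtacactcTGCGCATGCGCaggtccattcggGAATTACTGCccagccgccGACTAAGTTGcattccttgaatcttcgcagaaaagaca
Gabrb2: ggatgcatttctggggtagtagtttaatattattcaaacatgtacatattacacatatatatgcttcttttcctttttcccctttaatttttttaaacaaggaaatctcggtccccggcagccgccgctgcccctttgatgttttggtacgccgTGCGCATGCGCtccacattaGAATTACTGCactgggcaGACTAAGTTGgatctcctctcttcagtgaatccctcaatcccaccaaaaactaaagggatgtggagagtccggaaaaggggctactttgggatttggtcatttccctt
The 3 shared stretches come in the same order in both promoters. TGCGCATGCGC starts 30 bases before the annotated start in Gabrb1 and 96 before it in Gabrb2. GAATTACTGC starts 7 bases before in Gabrb1 and 76 before in Gabrb2, and GACTAAGTTG starts 12 bases after the start in Gabrb1 and 58 before it in Gabrb2. On either strand they occur in 0.598%, 0.0388% and 0.0149% of the 33469 promoters in the table, and among the members and Gabrg1 in no other. GCGCATGCGC, the palindrome inside the first stretch and the motif known for the factor NRF1, is in 0.852% of promoters. These motifs were chosen after the sequences were seen, and a match is a description of the letters only. Other pairs of these promoters also share stretches of at least 10 bases, though fewer than the 3 of the beta pair. Gabbr1 shares 1 with Gabrb2 (11 bases) and 1 with Gabbr2. Gabbr2 shares 2 with Gabra4 and 2 with Gabra5, and Gabra4 shares 1 with Gabrb1.

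The genes were also placed by their position along the genome. In RefSeq's gene order for GRCr8, Gabrb1, Gabra4, Gabra2 and Gabrg1 follow each other on chromosome 14, with 1 other protein-coding gene between Gabra4 and Gabra2. Gabrg1, which encodes a gamma subunit and is not a member, had ratios of 5.70, 3.46, 7.20 and 1.65, a mean of 1.97 ± 0.94 (limma adjusted p = 0.00932). Thus 3 of these 4 neighbours lay far above the reference, at 2.20, 2.15 and 1.97, and Gabra4 between them lay at -0.96. Gabra2 was read on chip B and the others on chip A, where 5.08% and 9.21% of all probe sets were higher. Gabrb1, Gabra4 and Gabra2 are members, chosen with earlier results known, so the count describes these genes and tests nothing. On chromosome 10 Gabrb2 lies near Gabra6, and on chromosome 1 Gabra5 lies near Gabrg3. Gabra6 (-1.05 ± 0.17, and -0.39 ± 0.09 from chip B) and Gabrg3 (-0.73 ± 0.05) were lower than the reference. In the other groups of subunit genes, Gabre, Gabra3 and Gabrq on chromosome X and Gabrr2 and Gabrr1 on chromosome 5, no gene was called higher.

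**Figure D2:**
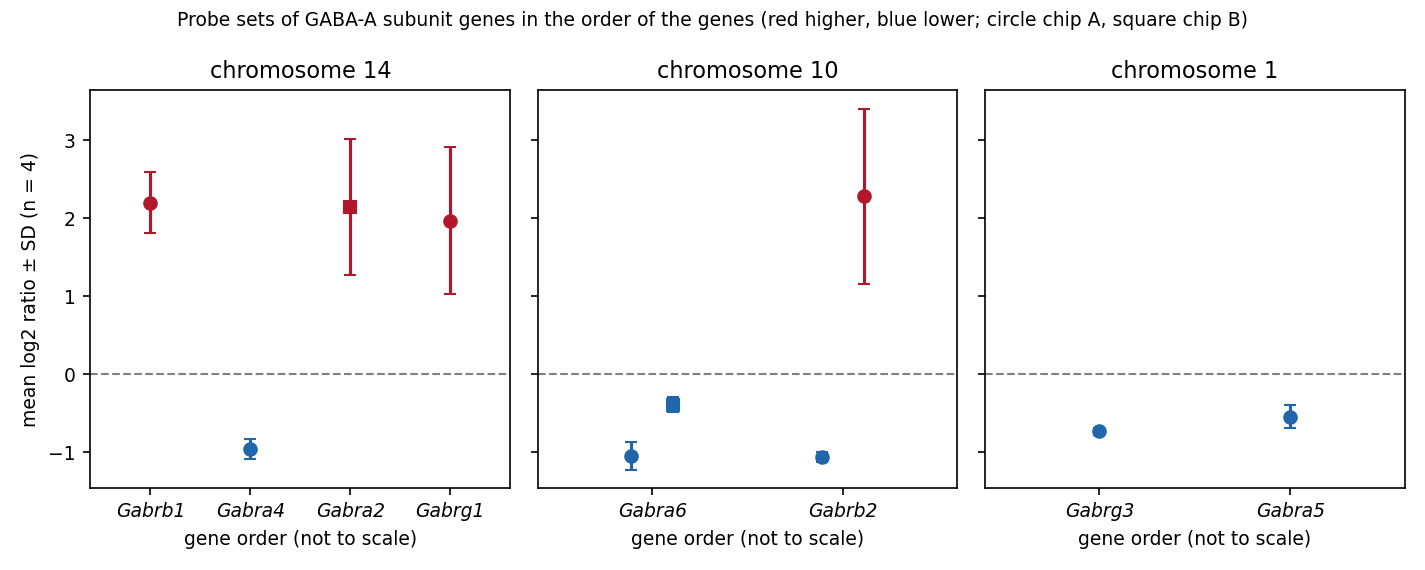
Mean log2 ratio ± SD (n = 4) of each probe set of GABA-A subunit genes named in the text, placed in the order of the genes on chromosomes 14, 10 and 1 (not to scale); red is higher and blue lower than the reference, circles are chip A and squares chip B. On chromosome 14 Gabrb1, Gabra2 and Gabrg1 lie near 2 and Gabra4 at -0.96.

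The promoters of the low and a high neighbour differ in base composition. Gabra4 (chr14:36944497-36944796, plus strand) and Gabrg1 (chr14:37750042-37750341, plus strand) are written 5′ to 3′ with each CG dinucleotide in capitals, to show how they contrast.
Gabra4: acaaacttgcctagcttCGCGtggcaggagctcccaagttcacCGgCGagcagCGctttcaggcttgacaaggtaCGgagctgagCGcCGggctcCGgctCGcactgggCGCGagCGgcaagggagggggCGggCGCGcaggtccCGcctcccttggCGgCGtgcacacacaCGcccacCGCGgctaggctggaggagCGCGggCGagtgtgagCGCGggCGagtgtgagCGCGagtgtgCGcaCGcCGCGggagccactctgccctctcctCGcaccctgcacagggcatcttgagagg
Gabrg1: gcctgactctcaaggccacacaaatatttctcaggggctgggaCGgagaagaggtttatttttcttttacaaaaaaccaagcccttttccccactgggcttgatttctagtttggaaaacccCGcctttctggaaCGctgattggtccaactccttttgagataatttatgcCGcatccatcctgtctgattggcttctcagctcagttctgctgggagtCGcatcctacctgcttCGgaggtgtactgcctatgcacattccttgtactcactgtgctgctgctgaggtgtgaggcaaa
Gabra4 holds 35 CG dinucleotides at 70.7% G and C, and Gabrg1 holds 6 at 48.7%, beside medians of 7 and 51.7% over all promoters. Gabrb1 (11 CG, 49.3%) and Gabrb2 (9 CG, 44.0%) resemble Gabrg1, and Gabra5 (42 CG, 76.3%), Gabbr1 (32 CG, 75.0%) and Gabbr2 (47 CG, 78.7%) resemble Gabra4. Of the first pair Gabrb1 was higher and Gabrb2 had both kinds of call, and of the latter genes Gabra5 was lower and both GABA-B genes had both kinds. A relation of composition to the ratios was not tested. GGGCGG, on either strand, was found in the promoters of Gabra4, Gabra5, Gabbr1 and Gabbr2 and in 33.1% of all promoters. TATAAA was found in none of these 7 promoters and in 14.2% of all.

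Both GABA-B genes had probe sets on either side of the reference. Gabbr2 had a probe set, 1387383_at, with ratios of 5.50, 4.64, 6.63 and 7.51, and a mean of 2.58 ± 0.30 (limma adjusted p = 0.000123), the highest among the members. The other, 1368952_at, had ratios of 0.381, 0.405, 0.411 and 0.410, and a mean of -1.32 ± 0.05 (limma adjusted p = 0.000112), the lowest among them. Both are annotated to the same RefSeq transcript. The ratios of one gene thus mark both ends of the list, 14.9-fold apart.

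Gabbr1 was measured by 5 probe sets, of which 2 were higher, 1 was lower and 2 were not called. Probe set 1388039_a_at was high and even, with ratios of 3.81, 3.64, 3.81 and 3.001, a mean of 1.83 ± 0.16 (limma adjusted p = 0.000110). Probe set 1369371_a_at had ratios of 1.91, 1.16, 4.23 and 3.10, a mean of 1.21 ± 0.82 (limma adjusted p = 0.0308). Its call depended on the arrays used: the limma adjusted p was 0.0626 without replicate 1, 0.0773 without replicate 3, 0.106 without replicate 4 and 0.0634 after quantile normalization.

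The other Gabbr1 probe sets lay nearer to or below the reference. Probe set 1375720_at had ratios of 1.41, 0.912, 1.88 and 1.45, a mean of 0.45 ± 0.43 (limma adjusted p = 0.0965), and replicate 2 was the only array below 1. Without that array it was called higher (0.64, limma adjusted p = 0.0153). Probe set 1388030_a_at had ratios of 0.546, 0.584, 1.08 and 0.551, a mean of -0.60 ± 0.47 (limma adjusted p = 0.0555). Replicate 3 stood alone there, and without it the probe set was called lower (-0.84, limma adjusted p = 0.00294), as it was with a trended, robust prior (0.0440). Probe set 1369372_at had ratios of 0.521, 0.542, 0.538 and 0.506, a mean of -0.93 ± 0.05 (limma adjusted p = 0.000242). The suffix a_at marks, by Affymetrix's naming, probes shared by several transcripts of a gene. Which Gabbr1 transcripts each probe set detects was not analysed here.

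Disagreement between probe sets was tested on the difference of their log2 ratios within each array. Over the 12 pairs of Gabbr1, Gabbr2 and Gabrb2 probe sets, 10 differed (limma, against 39% of all 3085 same-gene pairs on chip A). In 4 of the 12 one probe set was called higher and the other lower, against 3.63% of pairs. All 3 member genes with more than 1 probe set had both kinds of call, against 4.67% of 4494 such genes on either array type. Those genes were not matched to the members for their number of probe sets, of which Gabbr1 had 5. The 10 Gabbr1 pairs share 5 probe sets and are not independent of each other.

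The Gabbr2 difference was 3.85, 3.52, 4.01 and 4.19 in replicates 1 to 4 with 1387383_at as the higher, a mean of 3.89 ± 0.29 (limma adjusted p = 0.000355). Its size lay at percentile 99.9 of all same-gene pairs, whose median was 0.36 and whose largest was 4.01. The Gabrb2 difference was 4.02, 1.94, 4.42 and 2.98, a mean of 3.34 ± 1.11 (limma adjusted p = 0.00428, percentile 99.7). The largest Gabbr1 difference, between 1388039_a_at and 1369372_at, was 2.75 ± 0.13 (limma adjusted p = 0.000355, percentile 99.5). Each of these differences had the same direction on 4 of 4 arrays.

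Among the Gabbr1 probe sets the other differences were smaller. The 2 that did not pass were 1369371_a_at against 1388039_a_at (-0.61 ± 0.87, limma adjusted p = 0.230), which are both higher-called, and 1369372_at against 1388030_a_at (-0.33 ± 0.45, limma adjusted p = 0.244). The difference of 1369371_a_at and 1375720_at (0.76 ± 0.43, limma adjusted p = 0.0282) was lost without replicate 1 (0.0567), 3 (0.0907) or 4 (0.0918). Of the 12 member pairs, 8 were above the 90th percentile of all pairs, a difference of 1.27.

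**Figure D3:**
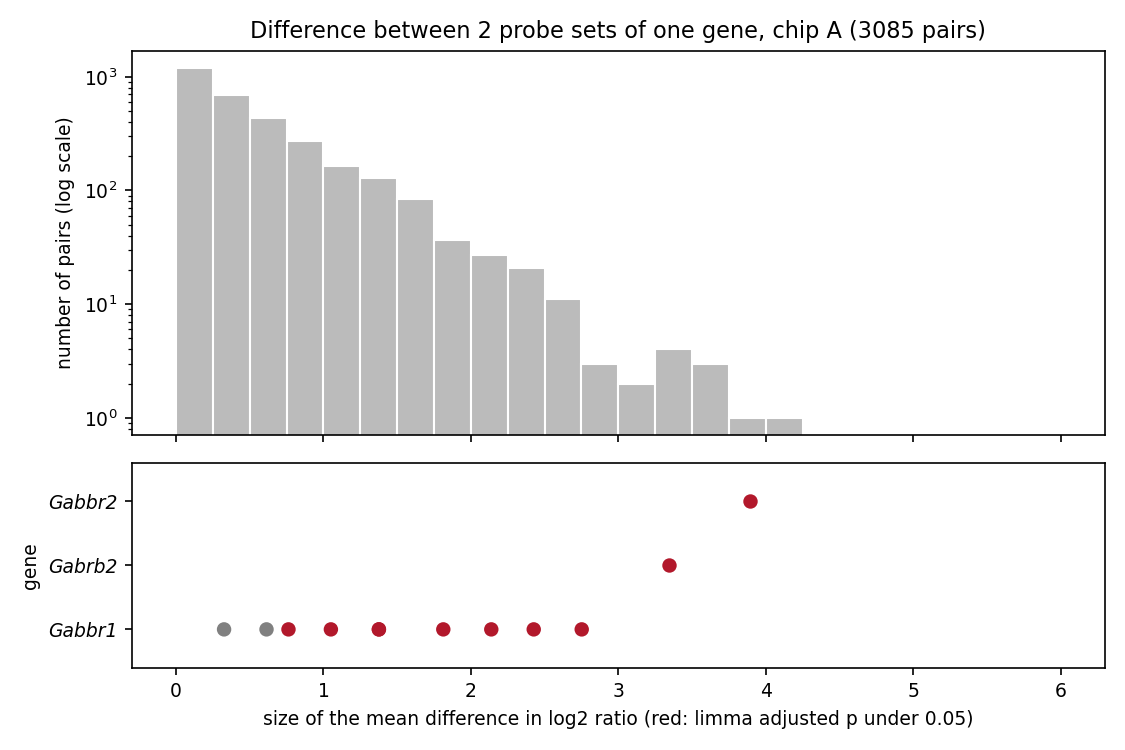
Top, number of same-gene pairs on chip A (log scale) by the size of their mean difference in log2 ratio, in bins of 0.25; bottom, the 12 member pairs on the same axis, red where limma's adjusted p was under 0.05. The Gabbr2 and Gabrb2 pairs, at 3.89 and 3.34, lie at the far right of the distribution, and the Gabbr1 pairs spread from 0.33 to 2.75.

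High and low probe sets also differed in their spread. The SDs of the 5 lower-called members ran from 0.05 to 0.15 and those of the 6 higher-called ones from 0.16 to 1.12. Over all of chip A the median SD was 0.11 for lower-called probe sets and 0.28 for higher-called ones. Of the 3601 chip A probe sets with a mean under -0.5, 57.1% had an SD under 0.15. All 5 lower-called member probe sets meet both limits, which lie just outside the values of Gabra5 (-0.54 and 0.148). That they meet them is therefore a description and not a test.

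Low and even ratios were also seen in probe sets for bacterial genes. All 27 Bacillus control probe sets of chip A had a mean below 0, from -1.34 to -0.05, with SDs from 0.05 to 0.13. Each of the 5 lower-called member means lay within that range of means, but in its lower part. The median control mean was -0.26, and 7 of the 27 controls had a mean under -0.5, as all 5 of these members did. The SD of Gabra5 (0.148) was above that of every control. In 26 of these 27 controls the ratios of replicates 2 and 3 both exceeded those of replicates 1 and 4. The median ratio of the whole chip A arrays had this order too, at 0.903, 0.93, 0.946 and 0.907 in replicates 1 to 4. The same order was found in 3 of the 5 lower-called member probe sets (those of Gabra4, Gabrb2 and Gabbr1), in 58.1% of all lower-called chip A probe sets and in 34.3% of all tested ones. Genes of other organs, such as digestive enzymes and milk proteins, were lower in 41 of 83 chip A probe sets (49.4%). Whether the low probe sets of Gabra4, Gabra5, Gabrb2, Gabbr1 and Gabbr2 detected their transcripts was not tested.

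**Figure D4:**
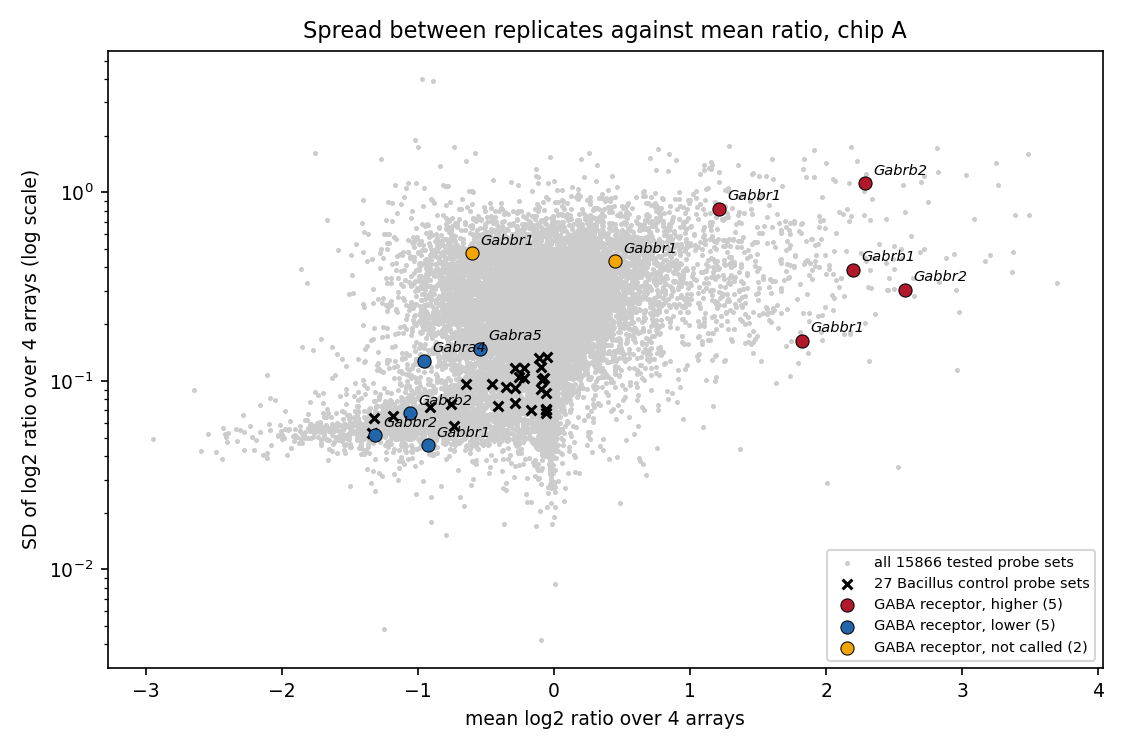
SD of the log2 ratio over the 4 chip A arrays (log scale) against its mean, for all 15866 tested probe sets (grey), the 27 Bacillus controls (crosses) and the 12 chip A members (red higher, blue lower, yellow not called). The 5 lower-called members lie in a low-spread band, with SDs up to 0.15, beside 7 of the 27 controls that also had a mean under -0.5. The other controls lie nearer to 0, and the higher-called members lie apart.

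Mean ratios on chip A were also put in order, which is an order of distances from the reference and not of expression. At the high end neighbours overlapped. Gabbr2 (2.58), Gabrb2 (2.28), Gabrb1 (2.20), Gabbr1 1388039_a_at (1.83), 1369371_a_at (1.21) and 1375720_at (0.45) each shared part of its range with the next. The first gap lay between this last probe set and Gabra5 (-0.54). Below it the ranges separated between Gabbr1 1388030_a_at (-0.60) and 1369372_at (-0.93), and between the lower Gabrb2 (-1.06) and Gabbr2 (-1.32) probe sets.

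The replicates did not move alike for all subunits. Gabra2 on chip B and the high Gabrb2 probe set on chip A had their highest ratios in replicates 1 and 3, and so did Gabbr1 1388039_a_at, though within a 1.27-fold range. This order was found in 24.6% of all higher-called probe sets of chip A and 18.6% of those of chip B. Gabrb1 and Gabbr1 1369371_a_at were highest in replicates 3 and 4, and Gabbr2 1387383_at likewise. In all of these except Gabbr1 1388039_a_at, replicate 2 was the lowest array.

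Marker lists of the cell types that such a sort could hold were set beside these values. Of 26 astrocyte probe sets, 16 were higher and 4 lower, of 33 neuronal ones 11 and 7, and of 12 oligodendrocyte lineage ones 6 and 1 (limma). Of 23 myelin probe sets 0 were higher (1 at an unadjusted p under 0.05) and 7 were lower, and of 14 microglial ones 0 (0 unadjusted) and 5. Over everything tested, 9.21% of chip A and 5.08% of chip B probe sets were higher and 30.1% and 27.1% lower, so the shares of lower myelin and microglial probe sets were near the background. Markers of inhibitory neurons were higher in 2 and lower in 3 of 11 probe sets, and those of vessel cells in 1 and 1 of 16. The 6 higher lineage probe sets were those of Cspg5 (1.74 ± 0.16), Bcan (1.37 ± 0.25 and 0.71 ± 0.09), Ptprz1 (0.90 ± 0.19 and 0.86 ± 0.31) and Pdgfra (0.93 ± 0.65). Cspg4 was not called at 0.34 ± 0.60. Among the lineage factors of the labelled cell type, Olig1 stood at -0.07 ± 0.50, Nkx2-2 at -0.39 ± 0.40 and the Olig2 probe sets at -0.43 ± 0.12 (lower) and -0.03 ± 0.03. Sox10 went both ways, with ratios of 0.722, 0.401, 1.34 and 2.57 in replicates 1 to 4. Ratios near 1 cannot show whether a marker was present.

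By array, the median log2 ratio of the astrocyte list on chip A was 1.15, 0.83, 1.23 and 0.95 in replicates 1 to 4, and that of the lineage list 0.81, 0.58, 1.05 and 0.79. Both were highest in replicates 1 and 3 and lowest in replicate 2, like Gabra2 (chip B) and the high Gabrb2 probe set (chip A). On chip B neither list had this order. The astrocyte medians there were -0.06, 0.01, -0.08 and -0.11 (2 probe sets). Those of the lineage were -0.38, -0.40, -0.23 and -0.01 (3 probe sets). The neuronal list did have it there, at -0.29, -0.57, -0.19 and -0.42 (4 probe sets). On chip A the microglial medians were -0.54, -0.87, -0.05 and -0.78, in which replicates 1 and 3 were again the highest. The neuronal medians of chip A were 0.38, 0.14, 0.06 and 0.18, highest in replicate 1 only. Of the chip A probe sets, 9 of 24 for astrocytes, 5 of 9 for the lineage and 7 of 14 for microglia had both replicates 1 and 3 above both others. So did 8 of 29 for neurons, 3 of 16 for myelin, 1 of 10 for inhibitory neurons and 3 of 12 for vessel cells. Beside these stand 12 of 83 for genes of other organs and 24.6% of all higher-called chip A probe sets. The share over all tested probe sets is not given here. The part of any of these cell types in the GABA receptor ratios was not tested. In such pooled RNA, more cells of a type and more RNA per cell cannot be told apart.

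**Figure D5:**
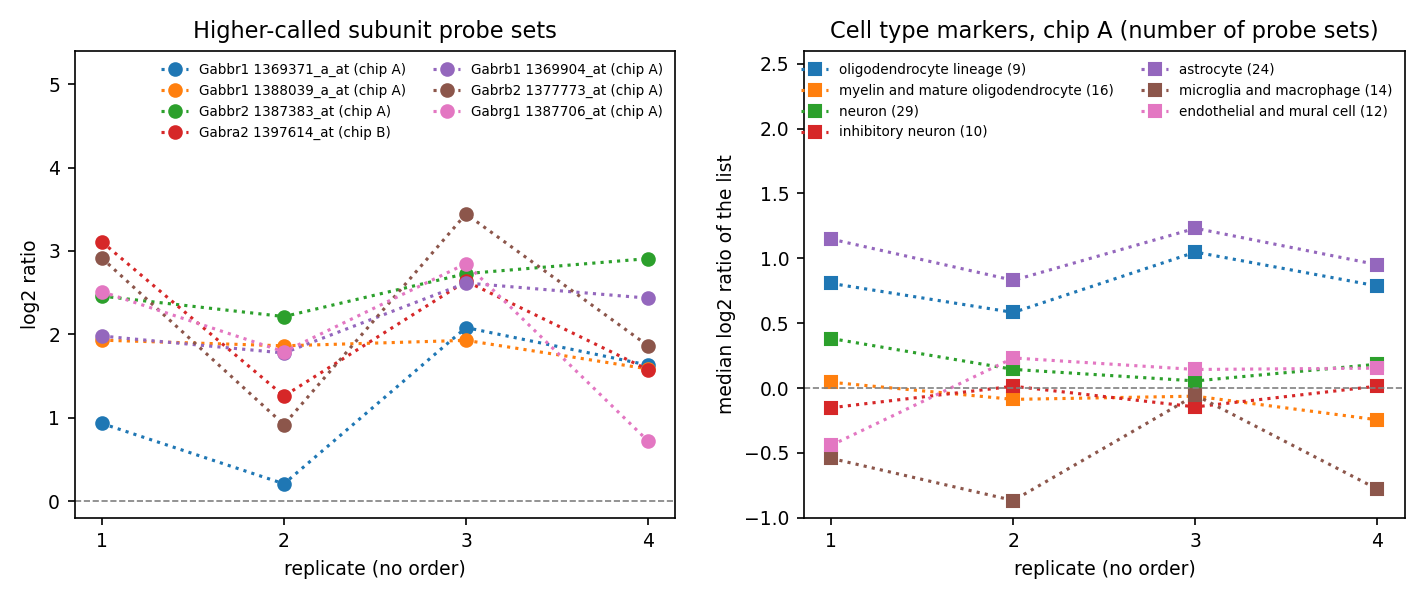
Left, log2 ratio in each replicate of the 6 higher-called member probe sets and of Gabrg1; right, median log2 ratio of each cell type marker list on chip A, with its number of probe sets. Dotted lines only join the points of one item, as replicates have no order. Gabra2 (chip B) and Gabrb2 on the left, and the astrocyte and lineage lists on the right, are lowest in replicate 2 and highest in replicates 1 and 3. The astrocyte and lineage medians of chip B, not shown, did not have this order.

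The other GABA receptor subunits were mostly low. Of 11 measured genes, 8 had only lower calls (limma, 72.7%, against 36.1% of all genes). Only higher calls were found in 1, Gabrg1 (9.09%, against 7.7% of all genes), and 2 had none. Over the 18 probe sets of these 11 genes the median was -0.59. The rho subunits, which form the GABA-C type of receptor of the retina, were lower on 5 of 5 probe sets (against 30.1% of chip A). Gabrr1 stood at -1.17 ± 0.06 and -0.35 ± 0.13, Gabrr2 at -0.90 ± 0.07 and -0.74 ± 0.07, and Gabrr3 at -1.14 ± 0.07. The second Gabrr1 call was lost after centring each array on its median (limma adjusted p = 0.0517) and without replicate 1, 3 or 4 (0.0772, 0.0570 and 0.0756).

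Among the remaining GABA-A subunits, Gabra3 was lower at -0.50 ± 0.21, but not when replicate 4 was left out (-0.45, limma adjusted p = 0.0511). Gabrd, the delta subunit of extrasynaptic receptors, had a chip A probe set at -1.24 ± 0.04 and chip B ones at -0.66 ± 0.12 and -0.23 ± 0.22, of which the last was not called (limma adjusted p = 0.167). Gabrp, the pi subunit, was lower at -0.53 ± 0.06 and, from chip B, at -1.34 ± 0.04, where 27.1% of all probe sets were lower. Gabre (-0.09 ± 0.07 and -0.03 ± 0.07) and Gabrq (0.03 ± 0.22) lay at the reference and passed in neither direction, and their signs turned with the setting.

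In the list for GABA-A receptor clustering and traffic, 6 of 17 genes had only lower calls (35.3%, against 36.1% of all genes) and 0 a higher one (limma, against 7.7%; 1 probe set at an unadjusted p under 0.05). The lowest was Lhfpl4, a GABA-A receptor auxiliary protein gene, at -1.66 ± 0.32 and -1.65 ± 0.02, and Gphn, the gene of the postsynaptic scaffold gephyrin, stood at 0.03 ± 0.41. In the list of GABA-B partners and potassium channel effectors, 3 of 12 genes had only higher calls (25%, against 7.7% of all genes) and 5 only lower calls (41.7%, against 36.1%). Rgs7, a regulator of G protein signalling, was highest at 2.25 ± 0.48 (limma adjusted p = 0.000521), then Jakmip1, a GABA-B receptor binding protein gene, at 1.43 ± 0.20 (0.000254) on one probe set and 0.01 ± 0.22 (0.934) on the other, and Gnao1, the G protein subunit Go, at 0.53 ± 0.29 (0.0229). The Gnao1 call was lost without replicate 1, 3 or 4 (limma adjusted p = 0.0780, 0.0753 and 0.0716). The channel gene Kcnj6 had 4 probe sets. Only the one at -0.95 ± 0.11 passed (limma adjusted p = 0.000367), and the others stood at -0.21 ± 0.15, 0.02 ± 0.11 and 1.46 ± 1.26 (limma adjusted p = 0.0981, 0.881 and 0.0623), the last with a ratio of 0.749 in replicate 2 and at least 3.86 in the other arrays.

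For GABA synthesis, transport and breakdown, 1 of 8 genes had only higher calls (limma, 12.5%, against 7.7% of all genes). Only lower calls were found in 2 (25%, against 36.1%) and both kinds in 2 (25%, against 1.52%). Gad1, which makes GABA, had probe sets at 2.32 ± 0.72 and -0.97 ± 0.06, both called, so it was divided like Gabrb2 and Gabbr2. Of the chloride transporters that set the direction of the GABA-A current, Slc12a2 (NKCC1) stood at 0.13 ± 0.16 and Slc12a5 (KCC2) at 0.38 ± 0.47 without passing, while Slc12a4 was higher at 1.06 ± 0.14. Glycine receptor genes had only lower calls in 3 of 4 (limma, 75%, against 36.1% of all genes) and only higher calls in 0 (against 7.7%). At limma's unadjusted p under 0.05, 0 of their probe sets were higher.

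The genes whose 4 ratios lay closest to those of a member were sought among single-gene probe sets of the same array type. For Gabbr2 1387383_at on chip A they were Sorcs2, a sortilin-family receptor gene (Euclidean distance 0.445 over 4 log2 ratios), Acsl6, an acyl-CoA synthetase gene (0.478), and the growth factor receptor gene Egfr (0.513). For Gabra2 on chip B they were the urea transporter gene Slc14a1 (1.24), Egfl6 (1.25) and the fatty acid elongase gene Elovl2 (1.37). The distance takes in the mean ratio as well as the pattern over arrays.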

How the data were processed

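Total RNA, extracted with a Qiagen kit and labelled by Affymetrix's small-sample protocol per the labels' protocols, was read on 2 array types (4 arrays each). RMA was the tool per the submitters' processing notes, without a version. The authors deposited linear ratios against a reference; its identity, and the steps that made the ratios, are not given in the sources used here.

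Ratios were put on the log2 scale as deposited, without centring. The 57 control probe sets of each type were left out. limma 3.58.1 (R 4.3.3; intercept, eBayes, two-sided, Benjamini-Hochberg within an array type, 0.05) was fitted to all 15866 and 15276 probe sets, with 2.31 and 1.52 prior degrees of freedom, so the spread estimates rest on few arrays. The same fit was run on differences of all same-gene pairs within an array. Scripts were tested on simulated data. Genes were named from the platform annotation, only from probe sets with 1 gene. All probe sets of the members and of other receptor subunits were named, and called genes of the other lists up to 4 highest and 4 lowest, of which the text gives a part, with some that were not called. The members and lists were chosen with earlier results of these data known.

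Same-numbered arrays of both types deviated together over 100 shared probe sets (r from 0.736 to 0.823, against at most -0.0130 for other numbers). Alternatives were centring, a trended prior, quantile normalization, single-gene probe sets only and leaving out each replicate.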

Additional observations from a re-analysis of the deposited data

Results flagged for a closer look

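Of the 59 probe sets checked, a single array lay far from the other 3 in 5, where chance flags about 1 in 20. In Gabbr1 1388030_a_at, replicate 3 had a ratio of 1.08 and its gap to the next array took 0.901 of the whole range of log2 ratios. In Rgs7, replicate 3 was the lowest at 2.91 (0.884 of the range), and in Slc12a4 replicate 1 was the highest at 2.42 (0.890). On chip B, replicate 2 was the lowest in Aldh5a1 1379900_at at 1.11 (0.883), and the highest in Lhfpl4 1377958_at at 0.439 (0.909).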

How the results depend on the processing

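The counts of higher and lower member probe sets, of member genes by kind of call and of differing pairs stayed within 1.5 times their value under every alternative run: 5 to 7 higher, 5 to 6 lower and 9 to 10 differing pairs. Only probe sets of Gabbr1 changed their call among the members. No value of a member or member pair changed sign. Among the other genes, calls of Abat, Ajap1, Aldh5a1, Gabarapl1, Gabra3, Gabrr1, Gnao1, Kcnj5 and Zdhhc3 were lost in at least 1 setting, and the cause was not tested. Centring on the array median moved the share of all chip A calls that were higher from 23.5% to 33.7%. The signs that turned were those of Gabre 1369383_a_at (0.030 after centring), Gabre 1388049_a_at (0.089 after centring, and from -0.051 to 0.0031 with 1 replicate left out) and Gabrq (from -0.081 to 0.078 with 1 replicate left out), none of them called in any of these settings. No paired analysis was possible because the groups that share replicate numbers are the 2 array types. Values of the 2 types were set side by side in places, but no test was run between them. Differences between probe sets were taken within each array. Signal over background is not known for ratios, so a low ratio cannot be told from an undetected transcript.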
